A study of Mus musculus with 40 samples.

Results

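The series concerns mpkCCD, an immortalized line of mouse kidney collecting duct cells, in which members of the CREB family of transcription factors were knocked out. The genes described here are those of the first steps of vasopressin signalling: the receptor Avpr2, the stimulatory G protein subunit gene Gnas, the adenylyl cyclases Adcy3, Adcy4, Adcy6, Adcy7 and Adcy9, and the receptor regulators Arrb1, Arrb2 and Rgs2. They were taken by symbol from the deposited table, in which all 10 were found among 55414 genes. Every library came from cells grown on permeable supports in medium with dexamethasone, selenite and transferrin and given dDAVP, an analogue of vasopressin, at 0.1 nM over 72 h. There were 4 groups: 11 libraries of unmodified control clones with wild-type genotype, 5 with the label ATF1-KO, 3 with ATF1/CREB1-KO, and 3 in which ATF1/CREB1/CREM-KO is given. By library number the labels form 3 runs, and each knockout label was compared with the control clones of its own run: 5 control clones for ATF1-KO, 3 for ATF1/CREB1-KO and 3 for ATF1/CREB1/CREM-KO. No library without dDAVP is among the 22, so the values describe stimulated cells only. The labels do not say whether the libraries of 1 knockout label come from separate clones, so p-values measure the spread between these libraries, which may be technical.

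Vasopressin binds the V2 receptor on the basolateral side of principal cells. The receptor activates the stimulatory G protein, whose alpha subunit turns on membrane adenylyl cyclase, and the cAMP made there activates protein kinase A, which phosphorylates aquaporin-2 and drives transcription of its gene. Signalling is shut down by receptor phosphorylation and by the beta-arrestins, which uncouple and internalize the receptor. RGS proteins act on G protein alpha subunits, and Rgs2 is known to shorten Gq signalling. CREB, ATF1 and CREM bind the cAMP response element, abbreviated CRE, and are among the nuclear targets of the kinase.

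Of the 10 genes, 7 were tested in ATF1-KO, 5 in ATF1/CREB1-KO and 7 in ATF1/CREB1/CREM-KO, and 0 passed under any label. Over all genes tested, 0%, 0.0715% and 9.17% passed, so a count of 0 among so few is near the background. Aqp2, the water channel gene downstream of them, fell in ATF1/CREB1/CREM-KO. The receptor, Gnas, Adcy6 and Arrb2 had the highest means of the set over all 22 libraries. In ATF1/CREB1-KO, however, Rgs2 averaged 9.53 TPM and Arrb2 5.62 TPM. These 4 genes were above 0 in all 22 libraries, as were Adcy3, Adcy7, Adcy9 and Rgs2. Adcy6 supplied most of the adenylyl cyclase transcript and Arrb2 most of the beta-arrestin transcript under every knockout label. A gene was tested where its mean over the libraries compared was at least 1 TPM (the deposited unit of transcript abundance, scaled for length). Adcy3, Adcy4 and Adcy7 were below that level in every comparison.

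The promoters of these genes bear on the factors that were removed, so 1 upstream window is shown for each of the 3 tested genes that hold the core of a CRE there. Windows are the 250 bases before the annotated start in RefSeq (GRCm38.p6), 5′ to 3′ on the gene's strand, and capitals mark the core, TGACG or its complement CGTCA on the other strand. Positions count back from the last base before the start, which is -1, and give the first base of the match. Rgs2 lies on chromosome 1, minus strand, with the window at chr1:144004150-144004399 and cores at -185 and -67. Gnas lies on chromosome 2, plus strand, with the window at chr2:174327499-174327748 and a core at -38. Adcy9 lies on chromosome 16, minus strand, with the window at chr16:4420499-4420748 and a core at -24.
Rgs2: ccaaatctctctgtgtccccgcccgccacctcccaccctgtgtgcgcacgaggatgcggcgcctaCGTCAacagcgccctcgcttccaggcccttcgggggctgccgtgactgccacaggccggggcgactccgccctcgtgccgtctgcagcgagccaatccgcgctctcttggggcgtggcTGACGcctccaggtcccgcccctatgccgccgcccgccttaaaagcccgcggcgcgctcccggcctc
Gnas: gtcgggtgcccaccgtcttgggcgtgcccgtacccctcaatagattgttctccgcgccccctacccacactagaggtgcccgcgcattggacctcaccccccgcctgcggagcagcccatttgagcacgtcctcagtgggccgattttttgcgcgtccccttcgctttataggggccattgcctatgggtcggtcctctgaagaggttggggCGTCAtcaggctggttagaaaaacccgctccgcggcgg
Adcy9: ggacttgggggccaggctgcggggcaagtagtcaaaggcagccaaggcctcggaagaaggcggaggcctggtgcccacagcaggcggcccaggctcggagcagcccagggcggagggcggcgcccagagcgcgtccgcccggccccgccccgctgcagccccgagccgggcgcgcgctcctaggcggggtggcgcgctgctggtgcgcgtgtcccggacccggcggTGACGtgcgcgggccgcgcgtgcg

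RefSeq windows were matched for 7 of the 10 genes, and not for Adcy6, Arrb1 and Arrb2. The core was present in an upstream window of 4 of these 7, the fourth being Adcy7, and in upstream windows of 19.8% of all genes in the table of promoters. A gene counted if any of its windows held the core. The 7 genes had 13 windows and all 27025 genes had 32851, so these shares are not like for like. The full palindrome TGACGTCA, which contains both forms of the core, was in none of the 7, and in the upstream windows of 1.77% of all genes. Avpr2, Adcy3 and Adcy4 had neither in any of their windows. All 250 bases of the Avpr2 window, and of an Adcy3 window, lie within annotated UTR. Gnas has several promoters, and 3 of its 4 windows held the core, at 2 sites: a pair of windows overlap and share the site shown, and the remaining window lies within annotated UTR. Aqp2, which is not one of the 10, had a core at -211 and no full palindrome. A match describes the letters of these windows and is not a measured binding site.

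Before the members, the labels and libraries were checked. Creb1 was at 18.7 ± 0.593 TPM (SD, n = 3) in ATF1/CREB1/CREM-KO against 37.7 ± 1.61 TPM (SD, n = 3) in its control clones (limma adjusted p = 0.00305). In ATF1/CREB1-KO it was at 3.39 ± 0.596 TPM against 5.55 ± 0.984 TPM, which did not pass (limma adjusted p = 0.471). A fit over all 22 libraries with run as a term gave limma adjusted p = 0.00775 there, and 609 genes passed in it. Atf1 did not pass the own-run test under any label. In ATF1-KO it was at 26.6 ± 8.88 TPM against 42.2 ± 4.22 TPM (SD, n = 5 each) without overlap, as were 1.3% of genes. Crem in ATF1/CREB1/CREM-KO was at 30.5 ± 4.02 TPM against 22.7 ± 2.48 TPM (limma adjusted p = 0.116). The labels do not give the edited positions, so a transcript level may not show the edit. The 6 libraries of run 2 had 7.21% to 15.3% of their TPM in 89 ribosomal protein genes, against 2.69% to 4.15% in the other 16, and in run 2 replicate 3 of ATF1/CREB1-KO was the lowest. The mitochondrial share moved with 2 of the labels, at 3.2% to 4.31% in ATF1/CREB1-KO against 2.08% to 2.33% in its control clones, and at 2.06% to 2.63% in ATF1/CREB1/CREM-KO against 1.21% to 1.42%; its part in the members' values was not tested. Between 17296 and 20703 genes were above 0 per library, and read depth is unknown because TPM does not keep it. Of 15 principal cell markers, 11 averaged at least 1 TPM in the control clones, with Aqp4, Elf5, Scnn1b and Kcnj1 below it, while the summed level of 9 intercalated cell markers lay between 18.9 and 117 TPM. The highest summed level in any library was 25.6 TPM for 9 proximal tubule markers, 4.55 TPM for 7 of the thick ascending limb and distal tubule, 2.18 TPM for 9 of fibroblasts and 13.7 TPM for 9 of endothelium and leukocytes. In ATF1/CREB1/CREM-KO Aqp6, from the intercalated cell list, and Cd68, from the endothelium and leukocyte list, fell, with log2 changes of -2.21 and -1.04. Slc12a3, from the distal tubule list, rose by 1.56, from a control mean of 0.0833 TPM (limma adjusted p = 0.0288, 0.0371 and 0.0499 in that order). Among other markers of those lists, Atp6v1b1 averaged 45 TPM in the control clones, Foxi1 was at 0 in 20 libraries and Lyz2 in 22. Of 12 principal cell markers tested in that label, 1 rose and 2 fell past the threshold, with Aqp2 among those that fell. Over all genes tested there, 9.17% passed. The part of these marker changes in other changes of that label was not tested. Fewer cells of a type and less RNA per cell cannot be told apart in these samples.

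Avpr2 (ENSMUSG00000031390, chromosome X), the V2 receptor, is the entry point of the pathway. In run 1 it was at 227, 175, 121, 212 and 156 TPM in control clones 1 to 5 and at 167, 136, 220, 144 and 173 TPM in the 5 ATF1-KO libraries. In run 2 it was at 49.2, 37.0 and 50.5 TPM in control clones 6 to 8 and at 57.3, 33.4 and 77.2 TPM in ATF1/CREB1-KO. In run 3 it was at 197, 154 and 217 TPM in control clones 9 to 11 and at 152, 141 and 140 TPM in ATF1/CREB1/CREM-KO. The groups overlapped in runs 1 and 2, and in run 3 every ATF1/CREB1/CREM-KO library lay below every control clone. The log2 change in run 3 was -0.37 ± 0.13 (SE), which did not pass the test (limma adjusted p = 0.132, unadjusted p = 0.0271), and its 95% interval ran from 0.619 to 0.961 times the control level. For ATF1-KO it was -0.07 ± 0.18 (limma adjusted p = 0.928) and for ATF1/CREB1-KO 0.22 ± 0.33 (limma adjusted p = 0.842). Without replicate 3 of ATF1/CREB1-KO, at 77.2 TPM, the latter was -0.04, of opposite sign (limma adjusted p = 0.948). Relative to that library's own median, its tested genes on chromosome X had a median log2 difference of 0.168. Replicates 1 and 2 had -0.0278 and 0.0121. The part of the chromosome-wide shift in the Avpr2 value was not tested.

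The run 3 value of Avpr2 depended on how libraries were weighed. Without control clone 10, the lowest of the 3, the log2 change was -0.52 (limma adjusted p = 0.0494), and with library quality weights it was -0.46 (limma adjusted p = 0.01), both past the threshold. Over all genes, 3.7% passed without control clone 10 and 33% with the weights, against 9.17% as reported. A fit over all 22 libraries with run as a term gave limma adjusted p = 0.436. Groups that did not overlap were common in that comparison, at 34.6% of the 13258 genes tested. The same receptor had a mean of 144 ± 6.46 TPM (SD, n = 3) in ATF1/CREB1/CREM-KO, above all 6 libraries of run 2, control clones included. Its related receptors Avpr1a, Avpr1b and Oxtr, which couple to other G proteins, reached at most 0.09 TPM in any library.

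The exons of Avpr2 overlap those of Arhgap4, a gene on the opposite strand. In the GENCODE M21 annotation, 2347 of 2886 exon bases of Avpr2, or 81.3%, are shared with it. The labels do not state that strand was recorded, and without it reads of the shared bases cannot be told apart. Arhgap4 was at 9.96, 7.14 and 9.30 TPM in control clones 9 to 11 and at 6.94, 4.91 and 4.84 TPM in ATF1/CREB1/CREM-KO, so all 3 knockout libraries again lay below all 3 control clones. Over all 22 libraries Arhgap4 lay between 1.06 and 9.96 TPM, well under Avpr2 in each. In the plot of Avpr2 against Arhgap4 both are given as differences from the own-run control mean.

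**Figure D1:**
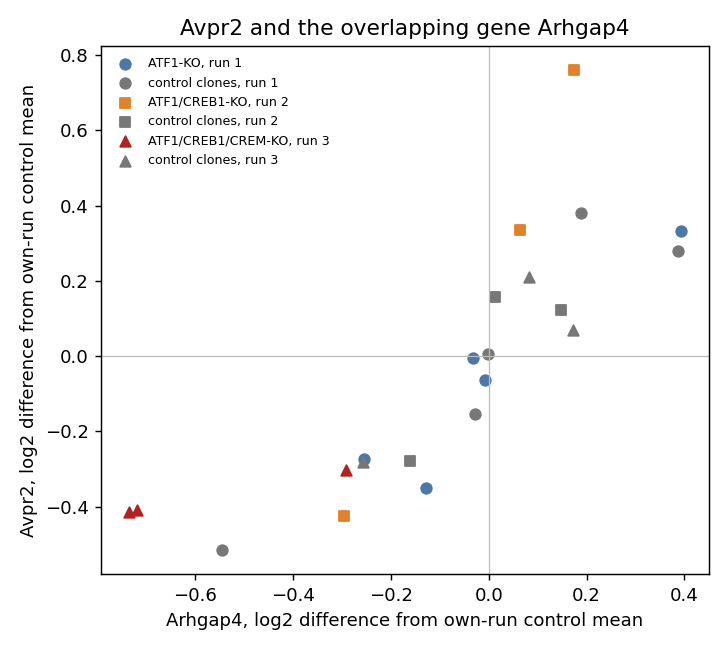
Difference of log2(TPM + 1) from the own-run control mean for Avpr2 (vertical axis) against Arhgap4 (horizontal axis), 1 point per library, with shapes for runs and colours for groups. The 3 ATF1/CREB1/CREM-KO libraries lie at the lower left, below 0 on both axes.

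Gnas (ENSMUSG00000027523, chromosome 2) encodes the alpha subunit that couples the receptor to adenylyl cyclase, and its locus also makes imprinted transcripts from other promoters, all of which the gene-level value sums. It was the most abundant of the 10 genes in every group. In run 1 it was at 1137, 1061, 1179, 504 and 1042 TPM in the control clones and at 1056, 996, 1026, 1080 and 1085 TPM in ATF1-KO. In run 2 it was at 304, 344 and 294 TPM in the control clones and at 269, 291 and 435 TPM in ATF1/CREB1-KO. In run 3 it was at 998, 1120 and 991 TPM in the control clones and at 1064, 1221 and 1156 TPM in ATF1/CREB1/CREM-KO. The groups overlapped in each run. The log2 changes were 0.15 ± 0.20 (limma adjusted p = 0.869), 0.05 ± 0.23 (0.951) and 0.15 ± 0.09 (0.341) in runs 1, 2 and 3. The 95% intervals were 0.818 to 1.51, 0.708 to 1.51 and 0.954 to 1.28 times the control level.

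Control clone 4, at 504 TPM, carried much of the ATF1-KO estimate. Without it the log2 change of Gnas was -0.07, of opposite sign (limma adjusted p = 0.744). With library quality weights the ATF1/CREB1/CREM-KO value was 0.21 and passed the test (limma adjusted p = 0.0367). In that fit 33% of all genes passed, against 9.17% as reported. Gnas shares 13.1% of its exon bases with Gm20721 and 8.83% with the antisense gene Gnasas1, so part of its value is uncertain in the same way.

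**Figure D2:**
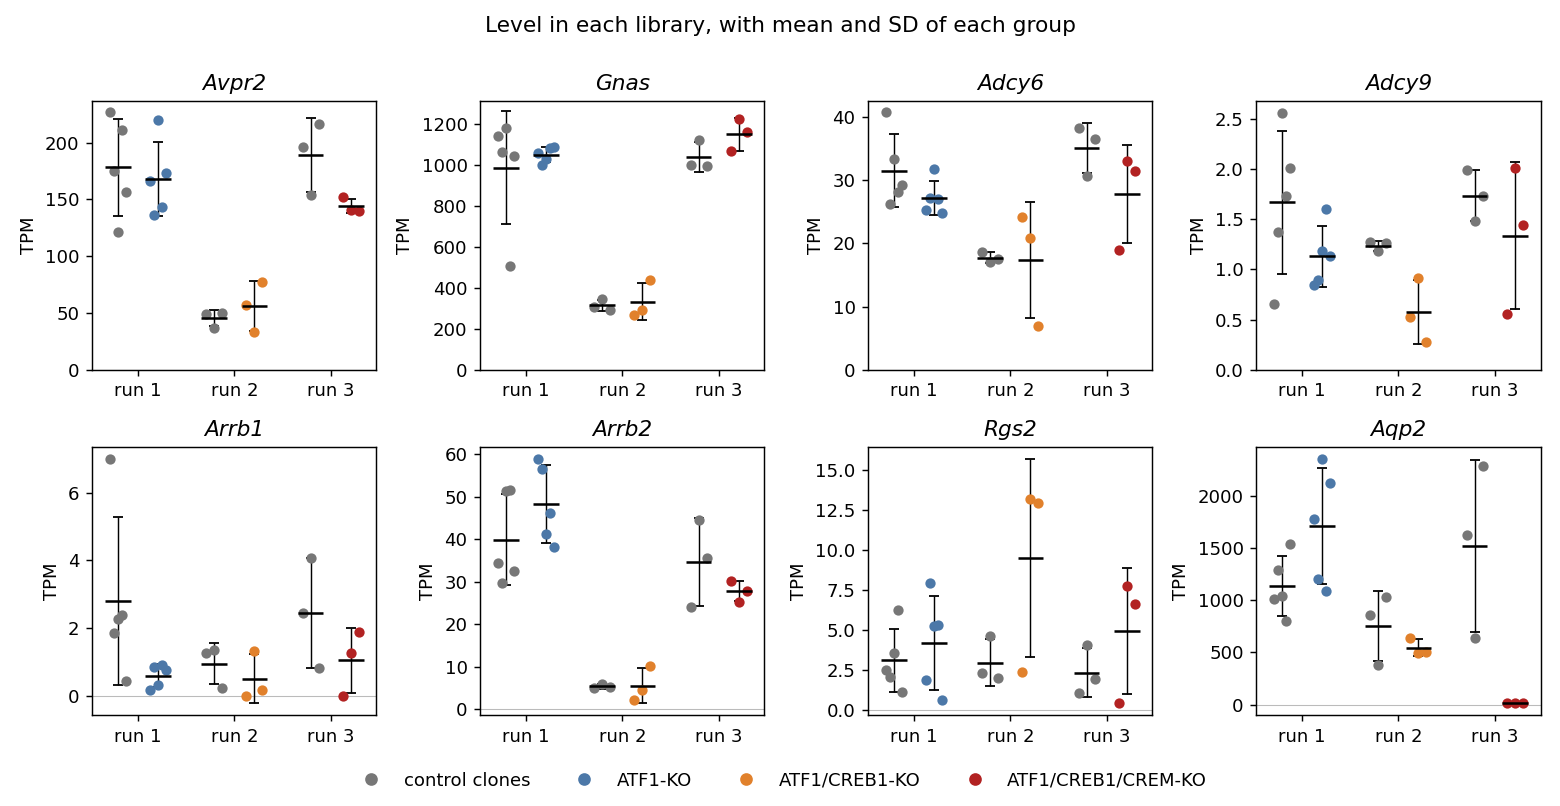
TPM in each library (points, 1 panel per gene) for the 7 tested genes and Aqp2, by run, with the group mean (horizontal line) and SD (error bar); control clones are grey. Control clone 4 stands apart for Gnas, and Aqp2 in ATF1/CREB1/CREM-KO lies near the bottom of its axis while the other 7 panels overlap in most runs.

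The adenylyl cyclases turn ATP into cAMP, and Adcy6 (ENSMUSG00000022994, chromosome 15) is the calcium-inhibited form known for vasopressin-stimulated cAMP in the collecting duct. Its level was 40.8, 26.2, 33.3, 28.1 and 29.2 TPM in the run 1 control clones and 25.3, 27.1, 31.7, 27.0 and 24.8 TPM in ATF1-KO. It was 18.6, 17.0 and 17.6 TPM in the run 2 control clones and 24.2, 20.9 and 6.86 TPM in ATF1/CREB1-KO. It was 38.2, 30.6 and 36.5 TPM in the run 3 control clones and 18.9, 33.0 and 31.4 TPM in ATF1/CREB1/CREM-KO. The groups overlapped in each run, and each ATF1/CREB1/CREM-KO library lay below the control mean. The antisense gene Gm29331, at 1.29 to 14.3 TPM, shares 8.92% of the exon bases of Adcy6. The log2 changes were -0.19 ± 0.12 (limma adjusted p = 0.722), -0.20 ± 0.43 (0.889) and -0.36 ± 0.22 (0.335).

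In both 3-library labels 1 library set much of the Adcy6 value. Replicate 3 of ATF1/CREB1-KO, the one with the low ribosomal protein share, had 6.86 TPM, and without it the log2 change was 0.33, of opposite sign (limma adjusted p = 0.260). Replicate 1 of ATF1/CREB1/CREM-KO had 18.9 TPM, and its tested genes on chromosome 15 had a median log2 difference from the control clones of -0.27 relative to the library's own median. The other 2 libraries of that label had 33.0 and 31.4 TPM, within the range of the control clones. On the same measure, control clone 1, with Adcy6 at 40.8 TPM, had 0.176. Replicate 3 of ATF1/CREB1-KO, at 6.86 TPM, had 0.0202. The part of the chromosome-wide shifts in the Adcy6 values was not tested.

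Adcy6 made up 88.8% to 96.8% of the summed TPM of the 10 adenylyl cyclase genes, with a median of 92.4% over the 22 libraries. Adcy9 was next, with 1.56% to 7.06%, and Adcy3 had 0.281% to 7.47%. The summed level itself lay between 7.27 and 42.2 TPM, the lowest being replicate 3 of ATF1/CREB1-KO. The TPM of Gnas was 11.1 to 63.5 times that of Adcy6 and 2.38 to 9.71 times that of Avpr2 in the same library. Adcy2 was listed at 0 in all 22 libraries, and Adcy1, Adcy5, Adcy8 and Adcy10 did not exceed 0.39 TPM in any.

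**Figure D3:**
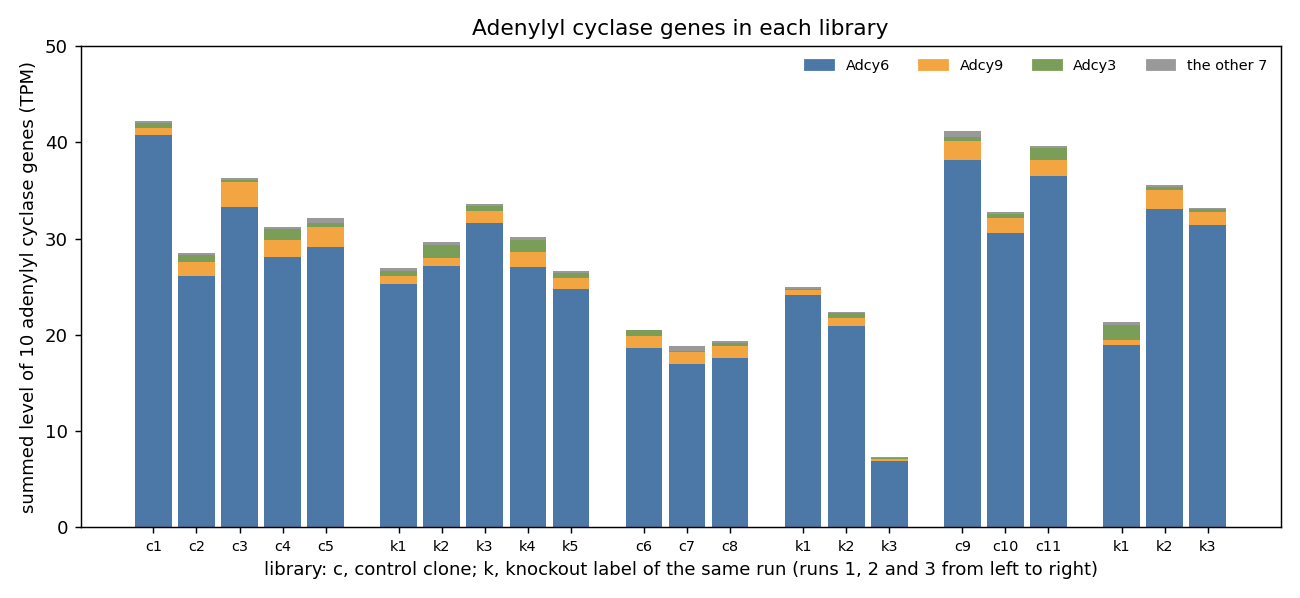
Summed level of the 10 adenylyl cyclase genes in each library (bar height, TPM), divided into Adcy6, Adcy9, Adcy3 and the other 7. Adcy6 fills 88.8% to 96.8% of every bar, and the lowest bar, at 7.27 TPM, is replicate 3 of ATF1/CREB1-KO.

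Adcy9 (ENSMUSG00000005580, chromosome 16), a cyclase that forskolin stimulates poorly, was the only other cyclase that reached the test. It was at 0.66, 1.37, 2.56, 1.73 and 2.01 TPM in the run 1 control clones and at 0.84, 0.89, 1.18, 1.6 and 1.13 TPM in ATF1-KO. In run 2 it was at 1.27, 1.18 and 1.26 TPM in the control clones and at 0.53, 0.91 and 0.28 TPM in ATF1/CREB1-KO, so every knockout library lay below every control clone. In run 3 it was at 1.99, 1.48 and 1.73 TPM in the control clones and at 0.56, 2.01 and 1.44 TPM in ATF1/CREB1/CREM-KO. Runs 1 and 3 overlapped, with log2 changes of -0.29 ± 0.22 (limma adjusted p = 0.770) and -0.27 ± 0.30 (0.599).

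In run 2 the mean of Adcy9 was below 1 TPM, so the own-run test left it out. A fit over all 22 libraries with run as a term gave a log2 change of -0.53 ± 0.27 there, which did not pass (limma adjusted p = 0.279). Of the genes tested in run 2, 19% had groups that did not overlap. Chromosome 16 was low in single libraries: relative to the library's median, its tested genes had median log2 differences of -0.731 in replicate 1 of ATF1/CREB1/CREM-KO, -0.31 in replicate 1 of ATF1/CREB1-KO, and -0.339 and -0.355 in replicates 1 and 2 of ATF1-KO. Those libraries held Adcy9 at 0.56, 0.53, 0.84 and 0.89 TPM. Low Adcy9 also occurred without it: replicate 3 of ATF1/CREB1-KO, at 0.28 TPM, had -0.0142, and control clone 1, at 0.66 TPM, had 0.0289. The part of the chromosome-wide value in Adcy9 was not tested.

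The remaining 3 cyclases were near the bottom of the scale. Adcy3, a calmodulin-regulated form known from olfactory neurons, lay between 0.07 and 1.59 TPM with a median of 0.47. Its exons share 22.1% of their bases with Cenpo, a centromere protein gene listed at 5.67 to 53.6 TPM, so its low value may include reads of the other gene. Adcy7 lay between 0.01 and 0.37 TPM, and all 3 ATF1/CREB1-KO libraries (0.03, 0.01 and 0.01 TPM) were at or below the lowest of the run 2 control clones (0.03, 0.10 and 0.08 TPM). Adcy4 was listed at 0 in 17 of 22 libraries and reached 0.07 TPM. No fold change is given for these.

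The beta-arrestins bind the phosphorylated receptor and uncouple it from the G protein. Arrb2 (ENSMUSG00000060216, chromosome 11) was at 34.4, 29.7, 51.2, 51.6 and 32.4 TPM in the run 1 control clones and at 58.9, 56.5, 41.3, 46.2 and 38.1 TPM in ATF1-KO. It was at 4.98, 5.95 and 5.27 TPM in the run 2 control clones and at 2.16, 4.50 and 10.2 TPM in ATF1/CREB1-KO. It was at 24, 44.6 and 35.5 TPM in the run 3 control clones and at 30.2, 25.3 and 27.9 TPM in ATF1/CREB1/CREM-KO. All 3 pairs of groups overlapped. The log2 changes were 0.29 ± 0.18 (limma adjusted p = 0.729), -0.14 ± 0.43 (0.920) and -0.27 ± 0.22 (0.466). Without replicate 1 of ATF1/CREB1-KO, at 2.16 TPM, the second was 0.30, of opposite sign (limma adjusted p = 0.657). Relative to that library's own median, its tested genes on chromosome 11 had a median log2 difference of -0.245. Replicate 1 of ATF1/CREB1/CREM-KO had -0.258, with Arrb2 at 30.2 TPM, the highest of that label. The part of these shifts in the Arrb2 values was not tested.

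Arrb1 (ENSMUSG00000018909, chromosome 7) was scarcer and more variable. It was at 7.00, 1.85, 2.26, 2.4 and 0.45 TPM in the run 1 control clones and at 0.16, 0.84, 0.31, 0.92 and 0.75 TPM in ATF1-KO. All 5 ATF1-KO libraries lay below the control mean, but control clone 5 lay among them, so the groups overlapped. The log2 change was -1.06 ± 0.38, which did not pass (limma adjusted p = 0.618, unadjusted p = 0.0184). No gene of the 13318 tested passed there, 0%, and 1014 had an unadjusted p under 0.05, while 1.3% had groups that did not overlap.

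In run 2 Arrb1 was at 1.27, 1.34 and 0.24 TPM in the control clones and at 0, 1.33 and 0.18 TPM in ATF1/CREB1-KO, with a mean below the test's minimum. In run 3 it was at 2.45, 4.08 and 0.81 TPM in the control clones and at 0, 1.26 and 1.87 TPM in ATF1/CREB1/CREM-KO, with a log2 change of -0.76 ± 0.53 (limma adjusted p = 0.394). Replicate 1 of each of those 2 labels was listed at 0. Arrb2 made up 77.2% to 100% of the summed TPM of the 2 arrestins, with a median of 95.7% over the 22 libraries.

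Rgs2 (ENSMUSG00000026360, chromosome 1), which shortens Gq signalling and is also known to bind some adenylyl cyclases, varied widely within groups. It was at 2.51, 2.05, 3.59, 6.24 and 1.09 TPM in the run 1 control clones and at 1.86, 7.92, 5.23, 5.3 and 0.59 TPM in ATF1-KO. It was at 2.29, 4.63 and 1.98 TPM in the run 2 control clones and at 2.38, 13.2 and 13.0 TPM in ATF1/CREB1-KO. It was at 1.07, 4.04 and 1.91 TPM in the run 3 control clones and at 0.42, 7.73 and 6.66 TPM in ATF1/CREB1/CREM-KO. In both 3-library labels 2 libraries lay above every control clone and replicate 1 did not.

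The log2 changes of Rgs2 were 0.22 ± 0.47 (limma adjusted p = 0.918), 1.20 ± 0.58 (0.574) and 0.55 ± 0.73 (0.672). In the ATF1/CREB1-KO comparison 9 of 12579 genes passed the test, 0.0715%. Without replicate 1 of ATF1/CREB1/CREM-KO it was 1.39 and passed (limma adjusted p = 0.0374), and with library quality weights it was 1.48 and passed (0.0214). In those fits 25.1% and 33% of all genes passed, against 9.17% as reported.

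**Figure D4:**
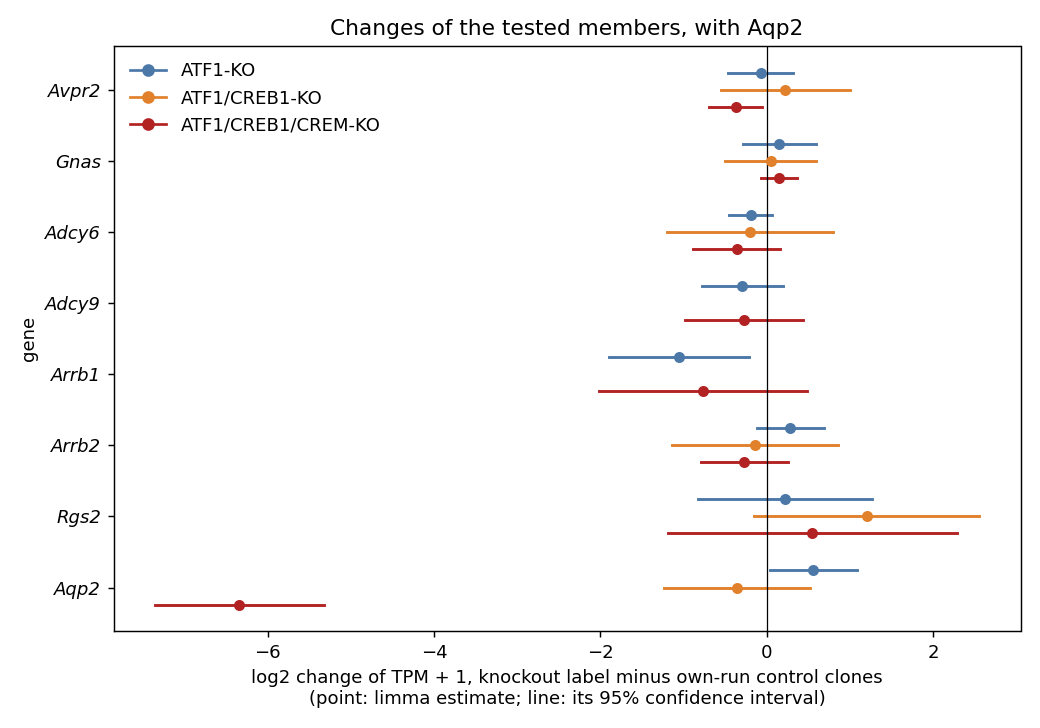
Log2 change of TPM + 1 for each tested gene and Aqp2 (points, limma estimate; lines, 95% confidence interval) for the 3 knockout labels; Adcy9 and Arrb1 have no ATF1/CREB1-KO value. Apart from Avpr2 in ATF1/CREB1/CREM-KO and Arrb1 in ATF1-KO, every member's interval includes 0, and the Aqp2 value of -6.34 lies apart.

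The members can be set beside Aqp2 in the same libraries. The Aqp2 level averaged 1516 ± 825 TPM (SD, n = 3) over control clones 9 to 11, and ATF1/CREB1/CREM-KO had 15.5 ± 0.499 TPM (SD, n = 3), a log2 change of -6.34 ± 0.43 (limma adjusted p = 0.00086). It did not pass in ATF1-KO (0.56 ± 0.24, limma adjusted p = 0.638) or in ATF1/CREB1-KO (-0.36 ± 0.37, limma adjusted p = 0.775). In the same 3 libraries Avpr2 stood at 76.3% of its control mean, Gnas at 111% and Adcy6 at 79.1%.

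The change of each member was then compared between knockout labels. Of the 21 differences for 7 genes and 3 pairs of labels, 0 passed the test and 0 had an unadjusted p under 0.05, with limma adjusted p-values from 0.605 to 1. Over all 13295 genes, 1.46% differed between ATF1/CREB1-KO and ATF1-KO, 3.57% between ATF1/CREB1/CREM-KO and ATF1-KO, and 0.188% between ATF1/CREB1/CREM-KO and ATF1/CREB1-KO. For Avpr2 the change under ATF1/CREB1/CREM-KO was lower than that under ATF1/CREB1-KO by a log2 difference of -0.60 ± 0.36 (limma adjusted p = 0.694).

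The levels of the members also differed between runs, apart from any knockout. Over the control clones, Avpr2 averaged 178 ± 42.5 TPM (SD, n = 5) in run 1, 45.6 ± 7.42 TPM (SD, n = 3) in run 2 and 189 ± 32.2 TPM (SD, n = 3) in run 3. Gnas averaged 984 ± 274, 314 ± 26.7 and 1036 ± 72.5 TPM, Arrb2 39.9 ± 10.7, 5.40 ± 0.498 and 34.7 ± 10.4 TPM, and Adcy6 31.5 ± 5.80, 17.7 ± 0.825 and 35.1 ± 3.96 TPM. For these 4 genes every run 2 control clone lay below every control clone of the other runs, as did 67.4% of all 13334 genes that averaged at least 1 TPM over the control clones, so the members share it with most genes. Adcy9, at 1.67 ± 0.711, 1.24 ± 0.0493 and 1.73 ± 0.255 TPM, and Rgs2, at 3.10 ± 1.97, 2.97 ± 1.45 and 2.34 ± 1.53 TPM, overlapped across runs. The ribosomal protein share was highest in the same run 2 libraries, and its part in these levels was not tested.

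Other genes of the pathway were taken from lists of G protein subunits, receptor kinases, RGS proteins, hormone receptors, G protein modulators, receptor trafficking genes and the remaining cyclases, 128 in all. None of the 64 tested in ATF1-KO and none of the 61 tested in ATF1/CREB1-KO passed, beside 0% and 0.0715% of all genes. In ATF1/CREB1/CREM-KO 66 were tested, of which 4 rose and 5 fell, or 13.6% beside 9.17% of all genes, with a median log2 change of 0.0122 beside -0.0451 for all genes tested. Those that rose were Gng12, a G protein gamma subunit, from 236 to 433 TPM, Rgs11, from 37.1 to 67.1 TPM, Snx2, a sorting nexin of the retromer, from 115 to 172 TPM, and Gng2, from a mean of 0.03 TPM in the control clones to 3.73 TPM. Those that fell were Gnb5, the beta subunit that pairs with RGS proteins such as Rgs11, from 26.3 to 8.32 TPM, Gpsm1, a modulator of Gi alpha subunits, from 10.8 to 4.39 TPM, Arrdc2, an arrestin-domain protein, from 32.0 to 19.1 TPM, Ric8b, a chaperone of Gs alpha subunits, from 25.9 to 18.7 TPM, and Mdm2, a ubiquitin ligase that binds beta-arrestin, from 81.4 to 59.6 TPM. Their limma adjusted p-values lay between 0.00261 and 0.0379.

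**Figure D5:**
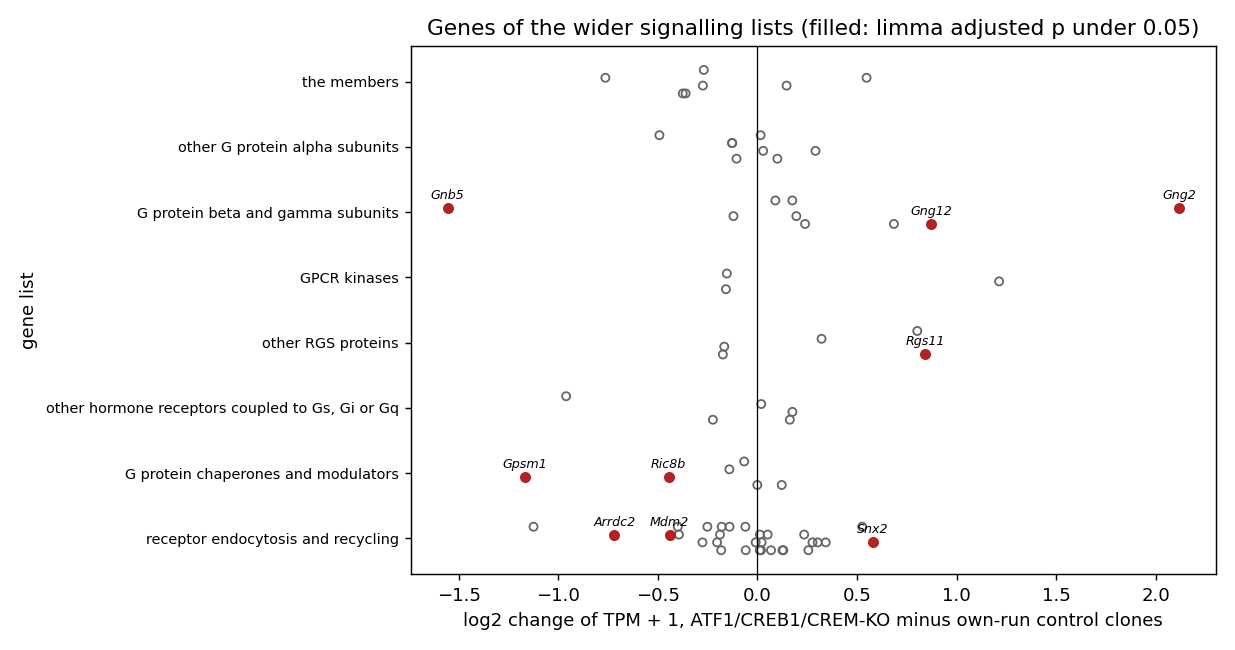
Log2 change of TPM + 1 in ATF1/CREB1/CREM-KO for every tested gene of the 10 members and the wider lists (1 point per gene, 1 row per list); filled points passed the test. No filled point is among the members, and the 9 filled points belong to 4 of the other lists.

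The genes whose own-run log2 differences were most like those of 3 members over the 22 libraries were listed among 13294 genes, as a description of shared variation between libraries that share composition. For Avpr2 these were Ctsd (Pearson r = 0.86), Xbp1 (0.825), Arhgap4 (0.824), Elf3 (0.82) and Snx13 (0.807). For Adcy6 they were Trib1 (0.933), Hs6st1 (0.891), Mien1 (0.891), Marchf6 (0.885) and Txnip (0.883). For Rgs2 they were 1700088E04Rik (0.8), Micall1 (0.8), Acy3 (0.792), Mapre2 (0.792) and Dpp4 (0.785). By rank, Spearman rho ran from 0.793 to 0.931 for the genes near Avpr2 and from 0.764 to 0.858 for those near Rgs2. Near Adcy6 it ran from 0.597 for Marchf6 to 0.839 for Trib1. Trib1 and Marchf6 lie on chromosome 15, as Adcy6 does, and so do 1700088E04Rik and Micall1, although Rgs2 lies on chromosome 1.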

How the data were processed

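RNA was sequenced from 22 libraries of mpkCCD cells. Per the labels' protocols, cDNA was made with a SMARTer V4 Ultra Low kit, tagmented with Nextera XT and sequenced in pairs. STAR and RSEM are named in the submitters' processing notes without versions; genome build and annotation are not given in the sources used here. The deposited values are TPM for 55414 genes, scaled by the authors for transcript length and to the same total per library, so depth is unknown and no counting intervals are given. Rescue samples (18) were not analysed here.

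Each knockout label was tested against its own-run control clones with limma 3.58.1 in R 4.3.3 (lmFit, eBayes with trend) on log2(TPM + 1), keeping genes that averaged 1 TPM or more across the compared libraries. A gene passed where the Benjamini-Hochberg adjusted p over all genes tested was under 0.05. A log2 change on log2(TPM + 1) understates the change of scarce genes. Errors of log2 changes are SE, and 95% intervals are not adjusted for multiple tests. Differences between labels came from 1 fit of 6 group means. The test was tried on simulated data: of 200 genes changed by 2 on the log2 scale, the ATF1-KO design recovered 185 (13318 genes, 8 false calls), the ATF1/CREB1-KO design 146 (12579 genes, 11 false calls) and the ATF1/CREB1/CREM-KO design 165 (13258 genes, 13 false calls).

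The members and lists were chosen with earlier results of these data known. Named beside the members were Atf1, Creb1, Crem, Aqp2, the other cyclases, up to 6 called genes of the other lists in each direction, the 5 genes nearest in pattern to Avpr2, Adcy6 and Rgs2, and genes that share exon bases with a member, apart from a microRNA gene listed at 0 within Arrb2. Alternatives covered the pseudocount, filter, scaling, controls, weights, the replicate block and leaving out each library. Exon overlap used GENCODE M21, and promoters came from RefSeq (GRCm38.p6), in Python 3.11.15 with pandas 2.3.3, numpy 2.4.6 and matplotlib 3.10.9.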

Additional observations from a re-analysis of the deposited data

Results flagged for a closer look

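Among groups of 5 libraries, control clone 4 stood apart for Gnas: it was at 504.07 TPM, against 1041.53 to 1178.62 TPM in the other 4 run 1 control clones. Chance alone sets a library apart in about 1 in 20 such groups. For Adcy4, control clone 4 was listed at 0.02 TPM and the other 4 run 1 control clones at 0, a difference at the lowest values the table holds.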

How the results depend on the processing

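Over the 19 own-run member results, 292 of 314 alternative values kept their direction and their side of the threshold, 15 changed sign and 7 passed where the reported value did not; the 21 differences kept both in 553 of 600 and changed sign in 47, with none passing. The causes were not tested. Against all 11 control clones with no run term, the log2 change of Avpr2 was 0.42 in ATF1-KO, -1.20 in ATF1/CREB1-KO and 0.23 in ATF1/CREB1/CREM-KO. That of Gnas was -1.14 in ATF1/CREB1-KO and that of Arrb2 0.31 in ATF1/CREB1/CREM-KO. With those controls Arrb2 (-2.005, limma adjusted p = 0.0461) and Rgs2 (1.29, 0.0455) passed in ATF1/CREB1-KO, as did 4260 genes in all, against 9 as reported. With library quality weights, ATF1/CREB1-KO gave 0.17 for Adcy6, -0.31 for Avpr2 and -0.0743 for Gnas, and the differences of labels became 0.31 for Adcy6 and -0.24 for Avpr2 (ATF1/CREB1-KO minus ATF1-KO), 0.0288 for Gnas (ATF1/CREB1/CREM-KO minus ATF1-KO) and 0.0751 for Arrb2 (ATF1/CREB1/CREM-KO minus ATF1/CREB1-KO). Median-ratio scaling turned the difference of Gnas between ATF1/CREB1/CREM-KO and ATF1-KO to 0.0528, and those of Arrb1 and Arrb2 between ATF1/CREB1/CREM-KO and ATF1/CREB1-KO to 0.0499 and 0.000519. Adcy9 between ATF1/CREB1/CREM-KO and ATF1-KO was -0.0574 with a pseudocount of 0.1 and -0.0047 with 0.5. A filter of 5 TPM left out Adcy9, Arrb1 and, in part, Rgs2.

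Leaving out each library in turn gave log2 ranges that cross 0. Own-run: Avpr2 -0.20 to 0.0236, Gnas -0.0738 to 0.23 and Rgs2 -0.0378 to 0.58 in ATF1-KO, and Adcy6 -0.51 to 0.33, Arrb2 -0.62 to 0.30, Avpr2 -0.0439 to 0.55 and Gnas -0.16 to 0.18 in ATF1/CREB1-KO. ATF1/CREB1-KO minus ATF1-KO: Adcy6 -0.32 to 0.52, Arrb2 -0.90 to 0.0109 and Gnas -0.31 to 0.12. ATF1/CREB1/CREM-KO minus ATF1-KO: Adcy6 -0.31 to 0.0789, Adcy9 -0.19 to 0.28, Arrb1 -0.11 to 0.74, Gnas -0.0854 to 0.22 and Rgs2 -0.14 to 1.17. ATF1/CREB1/CREM-KO minus ATF1/CREB1-KO: Adcy6 -0.69 to 0.15, Arrb1 -0.75 to 0.11, Arrb2 -0.57 to 0.35, Gnas -0.0368 to 0.31 and Rgs2 -1.34 to 0.19.

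Counts of genes that passed moved more. ATF1/CREB1-KO, 9 as reported, had 0 with no filter, 18 with median-ratio scaling, 461 with quality weights, 609 in the 22-library fit with run and 4260 against all control clones; ATF1/CREB1/CREM-KO, 1216 as reported, had 710 with no filter, 4381 with quality weights and 137 against all control clones. ATF1/CREB1-KO minus ATF1-KO, 194, had 120 with no filter, 397 with median-ratio scaling, 330 with quantile normalization and 622 with quality weights; ATF1/CREB1/CREM-KO minus ATF1-KO, 475, had 2579 with quality weights; ATF1/CREB1/CREM-KO minus ATF1/CREB1-KO, 25, had 16 with a pseudocount of 0.1, 16 with quantile normalization and 216 with quality weights. With 1 library left out, counts lay between 0 and 1, 0 and 60, 185 and 3317, 88 and 620, 273 and 879, and 7 and 59 in the order ATF1-KO, ATF1/CREB1-KO, ATF1/CREB1/CREM-KO and the 3 differences as listed; the highest were without control clone 4, replicate 3 of ATF1/CREB1-KO, replicate 1 of ATF1/CREB1/CREM-KO, replicate 3 of ATF1/CREB1-KO for 2 differences and replicate 1 of ATF1/CREB1-KO.

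With the replicate block, ATF1-KO again had 0 genes that passed and no member changed its call (Gnas 0.15, limma adjusted p = 0.889). Same-numbered libraries of run 1 did not deviate together: the 5 correlations ran from -0.103 to 0.0843 and 1 pair correlated best with its own number. No paired analysis was possible for runs 2 and 3 because the groups compared share no replicate numbers.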
